A study of Mus musculus with 2 samples.

Results

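The peaks described here lay in intergenic DNA at a middle distance from genes, more than 20 kb and at most 100 kb from the transcription start site (TSS) to which the authors' annotation assigned them. They came from the anti-FLAG library of a CUT&Tag study of hippocampus, taken from untreated CamK-PARIS mice on a C57BL/6J background. A peak was taken where the authors' table gave it the class Distal Intergenic and a distance within those bounds. This rule chose 12575 of 99782 annotated peaks, or 12.6% (95% Wilson interval 12.4 to 12.8%), and 39.5% of the 31838 distal intergenic peaks. They are called mid-distance peaks below, and they covered 4.97 Mb. The 9481 distal intergenic peaks within 20 kb of a TSS and the 9782 beyond 100 kb serve as the neighbouring bands.

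The study held 2 libraries, 1 with anti-FLAG and 1 with IgG, and the IgG library of the same genotype was the negative control in the authors' peak calling. The labels give neither the age, sex or number of the mice nor the promoter behind the transgene beyond the genotype's name. With 1 library per antibody no replicate error exists and no test was possible. Every interval below is a 95% interval that covers counting error over peaks or genes only.

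PARIS, encoded by Zfp746, is a KRAB zinc-finger protein known as a substrate of the ubiquitin ligase parkin and as a repressor of Ppargc1a, the gene of the mitochondrial coactivator PGC-1alpha. It is described as binding insulin response sequences (IRS), short T-rich words in the promoters of its known targets. CUT&Tag tethers a Tn5 transposase to an antibody on chromatin, and the enzyme cuts the DNA around the antibody's target. Intergenic DNA far from promoters holds many enhancers, which in neurons are often bound by AP-1 factors such as Fos and Jun, by MEF2 factors and by basic helix-loop-helix proteins. Tn5 is also known to favour open chromatin.

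The summit of a peak was taken as the middle of the region where the authors' signal was highest, and the 200 bp around it as the summit window. The windows below are written 5′ to 3′ on the plus strand of mm10. They belong to the 4 mid-distance peaks with the highest maximum signal, each named by the gene to which the authors assigned the peak, and show what DNA lay under the tallest signal.

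Lrig3 window, chr10:125903884-125904083: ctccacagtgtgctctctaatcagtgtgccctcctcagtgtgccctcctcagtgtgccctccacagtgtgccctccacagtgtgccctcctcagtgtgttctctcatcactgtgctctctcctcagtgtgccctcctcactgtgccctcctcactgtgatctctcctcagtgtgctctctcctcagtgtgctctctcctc
Neurl1b window, chr17:26381151-26381350: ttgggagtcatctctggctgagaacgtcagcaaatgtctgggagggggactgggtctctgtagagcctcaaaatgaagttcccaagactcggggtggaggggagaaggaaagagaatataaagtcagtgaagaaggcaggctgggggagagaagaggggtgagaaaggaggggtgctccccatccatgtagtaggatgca
Wscd2 window, chr5:113591763-113591962: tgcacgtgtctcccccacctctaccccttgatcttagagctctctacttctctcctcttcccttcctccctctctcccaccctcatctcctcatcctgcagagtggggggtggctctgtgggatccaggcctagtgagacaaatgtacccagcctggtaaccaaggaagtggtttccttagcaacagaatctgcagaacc
4930431P22Rik window, chr14:76791965-76792164: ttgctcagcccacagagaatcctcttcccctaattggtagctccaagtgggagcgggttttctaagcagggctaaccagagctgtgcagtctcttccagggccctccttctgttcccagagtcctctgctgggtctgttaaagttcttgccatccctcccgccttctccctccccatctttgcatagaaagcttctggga

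None of these 4 windows held any of the 8 motif words searched, so they have no capitals. The Lrig3 window was made of near copies of a short unit, and only 2 of its 4 pieces of 50 bp occurred once in the genome. In the other 3 windows all 4 pieces occurred once.

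The next 4 windows show examples of motif matches in tall peaks, with the matched letters in capitals. A taller peak may hold the same word. The words, searched on both strands, were TGANTCA for AP-1, CAGNGGGC for the core of the CTCF site, CTAAAAATA for MEF2, TATTTTT or TATTTTG for IRS and CAGATG for the neuronal E-box. The other words were TGACGTCA for the cyclic AMP response element (CRE), GCGTGGGCG for EGR factors and GTTGCCATG for RFX factors. The MEF2 word contains a match to the IRS word on the opposite strand.

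AP-1 in the 1700049E22Rik window, chr6:100558208-100558407: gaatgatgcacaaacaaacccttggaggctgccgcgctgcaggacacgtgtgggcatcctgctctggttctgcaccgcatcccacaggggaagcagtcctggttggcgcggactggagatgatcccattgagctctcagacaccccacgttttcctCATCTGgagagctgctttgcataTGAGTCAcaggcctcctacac
CTCF in the Adgrl1 window, chr8:83875608-83875807: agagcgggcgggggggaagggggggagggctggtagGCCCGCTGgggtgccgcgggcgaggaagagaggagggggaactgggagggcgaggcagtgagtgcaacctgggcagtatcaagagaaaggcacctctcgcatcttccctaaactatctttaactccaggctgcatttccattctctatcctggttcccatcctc
MEF2 in the Kbtbd8 window, chr6:95217391-95217590: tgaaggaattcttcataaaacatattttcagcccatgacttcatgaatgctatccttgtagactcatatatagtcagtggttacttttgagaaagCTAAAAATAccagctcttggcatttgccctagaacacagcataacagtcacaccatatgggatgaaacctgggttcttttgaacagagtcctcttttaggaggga
IRS in the Zfp706 window, chr15:36967601-36967800: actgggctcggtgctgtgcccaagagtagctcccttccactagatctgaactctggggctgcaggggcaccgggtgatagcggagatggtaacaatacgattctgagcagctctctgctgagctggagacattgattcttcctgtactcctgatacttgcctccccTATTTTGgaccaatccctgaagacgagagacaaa

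The first of these windows held TGAGTCA and, before it, an E-box match read as CATCTG on this strand. A match is a description of letters and does not show that a factor was bound.

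In signal the mid-distance peaks stood between the neighbouring bands. The authors' maximum signal, in coverage units whose scale the sources used here do not give, ranged from 5 to 968, with 98 as the median and the quartiles at 63 and 131. The median was 99 within 20 kb and 95 beyond 100 kb. Median width was 340 bp, against 356 bp within 20 kb and 297 bp beyond 100 kb. The tail of tall peaks differed more than the median did. Of the mid-distance peaks, 977 or 7.77% (7.31 to 8.25%) reached a maximum signal of 189, the level of the top 10% of all peaks. This share was 1.32 points lower than the 9.09% within 20 kb (interval of the difference −2.07 to −0.583) and 2.56 points higher than the 5.21% beyond 100 kb (1.91 to 3.20). Peaks at least 1000 bp wide made up 3.59% of the set, against 4.23% within 20 kb and 1.85% beyond 100 kb.

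Most mid-distance peaks were flat. In 8325 of them, or 66.2% (65.4 to 67%), the total signal was at least 99% of the maximum signal times the width, so the signal kept a constant height over the whole peak. The share was 63.3% over all annotated peaks, 63.5% within 20 kb and 75% beyond 100 kb. It exceeded the nearer band by 2.65 points (1.38 to 3.93) and was below the farther band by 8.80 points (difference −9.99 to −7.61). Flat peaks had a median maximum signal of 92, a median width of 241 bp and a highest value of 191. The other 4250 peaks, whose signal varied along the peak, had a median maximum signal of 123 and a median width of 577 bp.

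**Figure D1:**
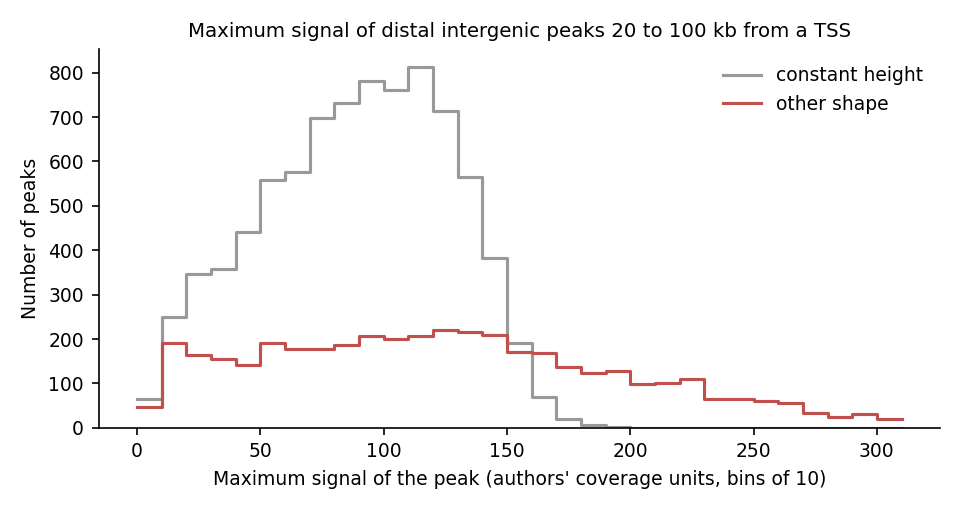
Number of mid-distance peaks by maximum signal (authors' coverage units, bins of 10) for peaks of constant height (grey) and of other shape (red). Constant-height peaks end at 191, and the 170 peaks of other shape at 310 or above are not drawn.

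Among flat peaks height and width ran in opposite directions. Of 5 equal groups by maximum signal, the lowest had a median width of 461 bp and the highest one of 151 bp. The smallest total signal of a mid-distance peak was 3331. Whether a lower limit on total signal had a part in this relation was not tested.

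The peaks thinned out with distance from genes. Their number fell from 3274 at 20 to 30 kb to 2427, 1730, 1435, 1176, 933, 880 and 720 in the following bins of 10 kb. The DNA at each distance became scarcer too, so density was taken per Mb of eligible sequence, meaning non-gap DNA outside genes, more than 3000 bp from a TSS and not within 300 bp after a gene's end, with peaks and sequence both placed by the GENCODE M21 annotation. It was 21.1 peaks per Mb (20.7 to 21.4) at 20 to 100 kb, 28.8 within 20 kb and 13.9 beyond 100 kb. Within the band the density fell from 24.5 (23.8 to 25.3) at 20 to 30 kb to 16.0 (14.6 to 17.5) at 90 to 100 kb.

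**Figure D2:**
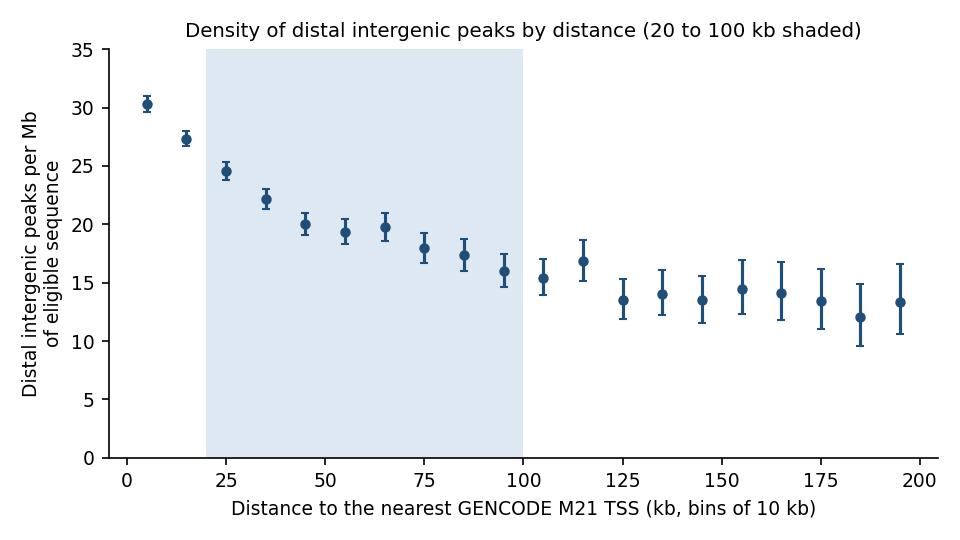
Distal intergenic peaks per Mb of eligible sequence (vertical axis) against distance to the nearest GENCODE M21 TSS in bins of 10 kb (horizontal axis), with exact Poisson 95% intervals. The density falls through the shaded 20 to 100 kb band from 24.5 to 16.0 and lies between 12 and 16.8 beyond it.

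Signal changed little along the same path. Median maximum signal lay between 94 and 100 in all 8 bins from 20 to 100 kb, and the share in the top 10% lay between 7.14 and 8.65%. The side of the gene changed more: 58.3% of the peaks at 20 to 30 kb lay upstream of their assigned TSS, and 50.7% at 90 to 100 kb. Over the band 54.8% (54.0 to 55.7%) lay upstream, against 66.0% within 20 kb and 49.9% beyond 100 kb. When peaks and sequence were both placed by GENCODE, 52.2% of the peaks and 51.3% of the eligible sequence of the band lay upstream. The upstream share of eligible sequence was not taken for each bin or for the neighbouring bands. Whether the changes in side follow the sequence available on each side was therefore not tested.

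The distance depends on which transcripts count as genes. The nearest TSS of any GENCODE M21 transcript was nearer than the authors' for 62.3% of the mid-distance peaks. With only the transcripts that carry an Entrez ID the distance matched the authors' for 77.8%, against 37.5% with all transcripts. By all transcripts, 7894 of 12546 peaks on chromosomes 1 to 19, X and Y (62.9%) kept their class and band, 3847 (30.7%) were distal but within 20 kb, and 233 (1.86%) lay within 1 kb of a TSS. Of those 233, the nearest TSS belonged to a long intergenic non-coding RNA (lincRNA) for 90 and to a processed pseudogene for 67, and to a protein-coding gene for 6.

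Mid-distance peaks often had company. Another peak of the set lay within 10 kb for 56.1% (55.3 to 57.0%). The corresponding shares were 52.1% within 20 kb and 38.4% beyond 100 kb, but only peaks of the same band were counted, so each share depends on the width and density of its band and they were not compared. Joining peaks less than 12 kb apart gave 7634 runs, of which 5057 held 1 peak and 302 held 5 or more. The long runs together held 1956 peaks, or 15.6%.

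Peaks in long runs were taller and less often flat. From single peaks to runs of 5 or more, the share of constant height fell from 72.6% (71.3 to 73.8%) to 54.2% (52.0 to 56.4%). The share in the top 10% by maximum signal rose over the same classes from 5.08% (4.51 to 5.72%) to 12.5% (11.1 to 14.0%). These intervals count every peak by itself, although the 1956 peaks of the long runs lay in 302 runs. The shares are also linked, because flat peaks end at a maximum signal of 191 and the top 10% starts at 189.

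The longest run held 25 peaks over 77.0 kb between Camk2n1, an inhibitor of the kinase CaMKII, and Vwa5b1, at chr4:138476848-138553858. Its peaks had a median maximum signal of 130 and a highest of 276, and 15 were not flat. The next run, of 18 peaks at chr2:157478355-157536456, lay between Src, a tyrosine kinase, and Blcap, and reached 400. A run of 17 peaks at chr11:104045309-104111336 lay between Arf2, a small GTPase, and Crhr1, the receptor for corticotropin-releasing hormone. The fourth, with 16 peaks at chr18:35880659-35940311, lay between Cxxc5, a CXXC zinc-finger protein, and Psd2, an exchange factor for Arf6. The fifth stood out by height: its 14 peaks at chr12:86795639-86836839, between Lrrc74a and Irf2bpl, had a median maximum signal of 196.5 and a highest of 624, and 12 of them were not flat.

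The DNA under the summits was richer in G and C than its surroundings. Mean GC content was 47.4% ± 7.29 (SD over 12546 windows) in the summit windows and 44.6% ± 7.34 in flanks 1000 bp to either side, a gap of 2.81 points. The gap was 1.91 points at flat peaks, 4.59 points at the others and 5.09 points at the peaks in the top 10%. Few windows resembled CpG islands. With a GC content of at least 50% and an observed over expected CpG ratio of at least 0.6 as the mark of CpG-rich DNA, 1.87% of the mid-distance windows qualified, against 36.7% of the windows of peaks within 1 kb of a TSS.

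The AP-1 word was more frequent at the summits than beside them. It occurred in 1353 of 12546 summit windows, or 10.8% (10.3 to 11.3%), and in 6.46% of flank windows, a difference of 4.32 points (3.70 to 4.95). The same letters in reversed order, ACTNAGT, which keep the base composition and were added as a control after the data had been seen, occurred in 5.08% of both. The gain lay mostly in the form TGACTCA, the classic AP-1 site, at 7.73% of summits and 3.86% of flanks. The form TGATTCA stood at 3.5% of summits and 2.73% of flanks.

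Taller peaks held the AP-1 word more often. From the lowest to the highest of 10 equal groups by maximum signal its share went from 6.78% (5.51 to 8.31%) to 17.1% (15.1 to 19.3%), while the flanks stayed between 5.94 and 7.14%. Between these ends the order was uneven: the fifth group held 11.5% and the sixth 9.65%, with overlapping intervals. Of the 977 peaks in the top 10% of all peaks, 17.9% (15.6 to 20.4%) held the word, against 6.4% of their flanks, a ratio of 2.80. TGACTCA alone stood there at 14.5% and 4.04%, and the reversed word at 4.50% and 5.42%. Peaks of other shape held the word more often than flat ones, at 13.0 and 9.68% (difference 3.29 points, 2.11 to 4.50). Of the highest of the 10 groups 2.31% were flat. Each shape was also split into 5 equal groups by maximum signal. Among peaks of other shape the share went from 8.64% (6.93 to 10.7%) in the lowest to 17.97% (15.5 to 20.7%) in the highest. Among flat peaks the rise was smaller, from 8.18% (6.96 to 9.59%) in the lowest to 10.1% (8.74 to 11.6%) in the fourth. The highest flat group had an interval of 9.58 to 12.6%, and flanks of flat peaks held 5.71 to 7.09%.

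**Figure D3:**
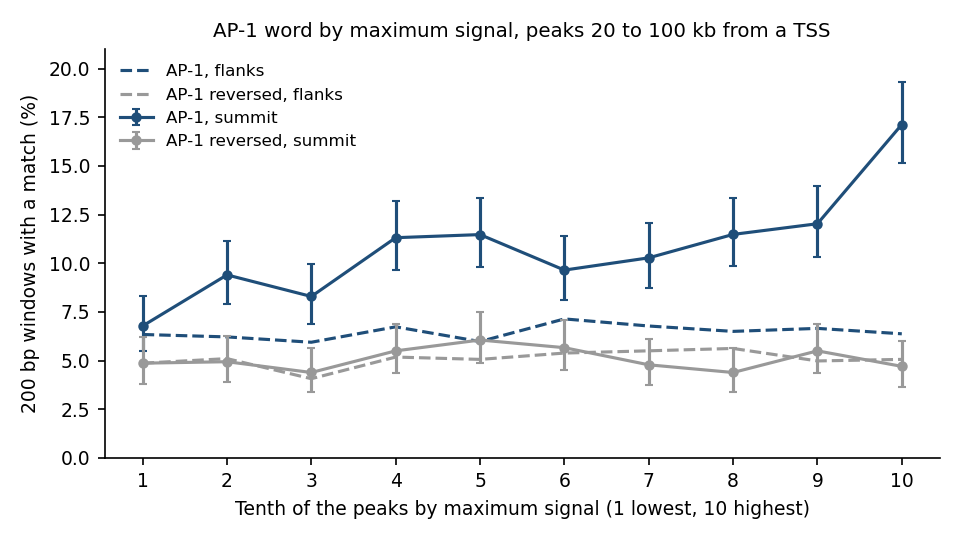
Share of 200 bp windows with the AP-1 word TGANTCA (blue) or its letters reversed (grey) in 10 equal groups of the mid-distance peaks by maximum signal, at summits (points, Wilson 95% intervals) and in flanks (dashed). The AP-1 summit share ends at 17.1% in the highest group, and the reversed word stays between 4.39 and 6.06%.

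The match was centred on the summit. In the top 10%, 6.24% of the peaks held the AP-1 word in the 50 bp just before the summit, against 1.13 to 2.35% in each bin more than 500 bp away. The same bin held 3.88% at peaks of other shape and 3.07% at flat peaks. In the top 10% the reversed word had no such rise, at 1.23% in that bin.

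**Figure D4:**
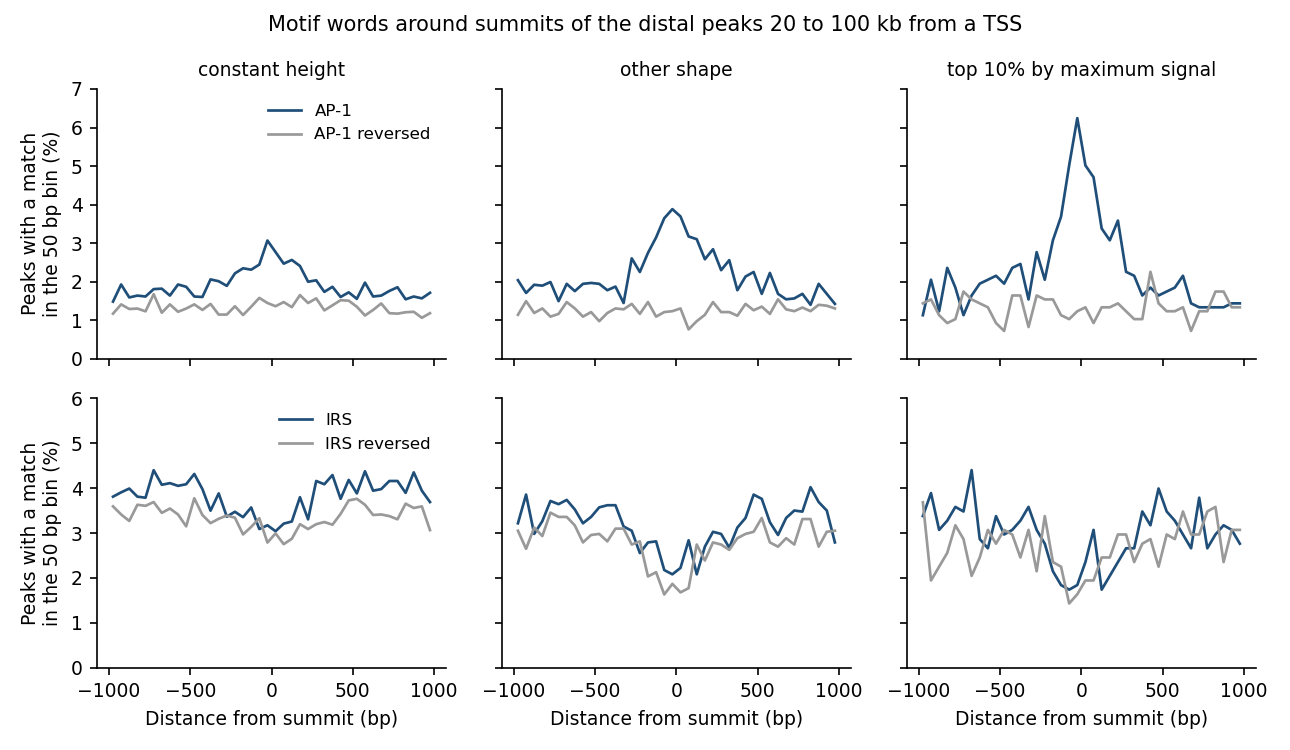
Share of mid-distance peaks with a motif match in each 50 bp bin against distance from the summit, for flat peaks, peaks of other shape and the top 10% by maximum signal. The AP-1 word (upper row, blue) rises to 3.07, 3.88 and 6.24% in the bin before the summit, whereas the IRS word and its reversed form (lower row) both dip there.

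The AP-1 share did not set the band apart from other distal peaks. It was 10.5% within 20 kb and 10.3% beyond 100 kb, and the differences of 0.241 points (−0.587 to 1.06) and 0.506 points (−0.308 to 1.31) had intervals that included 0. Promoters did differ: of the windows of peaks within 1 kb of a TSS 5.30% held the word, 5.48 points less (4.84 to 6.14). There the summits exceeded their own flanks by 0.356 points (−0.0683 to 0.793). Over all peaks the word stood in 9.41% of summit windows.

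The IRS word was less frequent at the summits, at 10.2% (9.65 to 10.7%) against 13.8% in flanks, a difference of −3.68 points (−4.36 to −3.00). The gap was of like size within 20 kb (−3.87 points), beyond 100 kb (−3.77) and over all peaks (−3.58). Peaks within 1 kb of a TSS had a larger gap of −5.69 points (−6.18 to −5.18), with 5.41% at summits and 11.1% in flanks. For mid-distance peaks in the top 10% it was −5.37 points (−7.60 to −3.00). Summit shares were 9.37% within 20 kb and 15.0% beyond 100 kb. The mid-distance share was 4.87 points below the farther band (difference −5.76 to −3.99). Its difference from the nearer band, 0.793 points, had an interval that included 0 (−0.00186 to 1.58). Over all mid-distance peaks the reversed letters gave 9.26 and 12.3%, a difference of −3.06 points (−3.71 to −2.41). Windows free of soft-masked repeats gave −1.04 points (−1.96 to −0.066) for the IRS word and a GC gap of 1.95 points. The IRS word holds at most 1 G or C, as do its reversed letters. Whether the GC content of the summits had a part in the IRS gap was not tested.

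The remaining words gave small differences. The neuronal E-box stood at 17.8% of summits and 16.2% of flanks (difference 1.56 points, 0.756 to 2.38), and its reversed letters at 5.56 and 6.71%. The CTCF word stood at 3.4 and 2.70%, and its reversed letters at 0.574 and 0.470%. In the top 10% the CTCF difference of 0.512 points had an interval of −0.920 to 2.14 in the same units. MEF2 stood at 0.534 and 0.454%, a difference whose interval included 0. RFX stood at 0.510 and 0.295% (difference 0.215 points, 0.0816 to 0.368). The CRE word occurred in 35 windows, 0.279% of summits and 0.155% of flanks. Of the peaks in the top 10%, 9 held it, or 0.921% (0.485 to 1.74%), against 0.0512% of their flanks. The EGR word occurred in 4 windows.

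Genes were named by nearness only, and a nearest gene need not be a target. The peaks were assigned to 5125 genes, of which 2232 had 1 such peak and 640 had 5 or more. By peak, 78.9% went to protein-coding genes and 13.3% to lincRNAs. Of the 21938 protein-coding genes 4142 had at least 1 mid-distance peak, which is 18.9%. Of the genes without one, the median had 0 kb of eligible sequence at that distance. Among the 6541 genes with at least 10 kb of eligible sequence at 20 to 100 kb, 3638 or 55.6% had a peak, and 27.6% had one that was not flat.

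Genes with mid-distance peaks more often had a peak at their own promoter. Of the genes with at least 10 kb of eligible sequence, 52.3% (50.7 to 53.9%) of those with a mid-distance peak also had a peak within 1 kb of a TSS, against 35.9% (34.1 to 37.6%) of those without. The difference was 16.4 points (14.1 to 18.8). The promoter share was 47.3% with 1 mid-distance peak, 50.2% with 2, 54.5% with 3 to 4 and 68.3% (64.0 to 72.3%) with 5 or more. With the genes split into 4 equal groups by eligible sequence, the difference lay between 13.2 and 25.6 points. The limit on eligible sequence was added after the data had been seen. Over all protein-coding genes the shares were 52.1 and 40.1%.

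**Figure D5:**
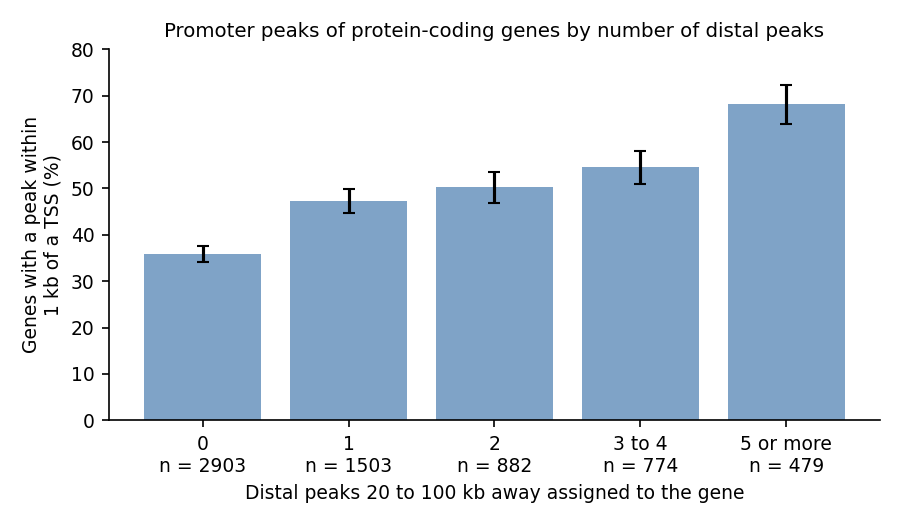
Share of protein-coding genes with a peak within 1 kb of a TSS (vertical axis, Wilson 95% intervals) by number of assigned mid-distance peaks, for genes with at least 10 kb of eligible sequence. The share goes from 35.9% at 0 peaks to 68.3% at 5 or more.

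The 10 genes with the most mid-distance peaks ranged from signalling and adhesion proteins to transcription factors and lincRNAs. The lincRNA E130006D01Rik had 22, of which 14 were not flat, and no promoter peak. Ywhaz, which encodes the 14-3-3 protein zeta, had 20, with a highest maximum signal of 299 and 2 promoter peaks. Olfm1, a secreted olfactomedin protein of neurons, had 19, of which 4 lay upstream, and 4 promoter peaks. Nectin1, a cell adhesion molecule, had 18 and a highest maximum signal of 482. Pcdh1, a protocadherin, had 16, all downstream of its TSS. Rbm19, an RNA-binding protein of ribosome production, and Irf2bp2, a transcriptional corepressor, had 16 each, and Irf2bp2 had no promoter peak. Lhx5, a LIM homeobox factor of the developing forebrain, had 15, as did Ppp1r26, and all of these lay upstream. The lincRNA 4930568G15Rik also had 15.

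Marker genes of brain cell types were described by counts beside the 55.6% of all genes with eligible sequence, and these lists are short. The lists were not matched to all genes for the amount of eligible sequence. Its median was 60.1 kb at eligible genes with a mid-distance peak and 30.7 kb at those without. Of 11 hippocampal excitatory neuron genes with eligible sequence, 10 had a mid-distance peak (90.9%, 62.3 to 98.4%), but 3 of 11 (27.3%) had one that was not flat, against 27.6% of all genes. The counts were 7 of 11 for interneurons, 4 of 7 for astrocytes, 1 of 5 for oligodendrocytes and 4 of 5 for vascular cells. Of the lists given here, only those of the excitatory genes and of the PARIS-linked genes, below, had intervals that left out the background share. For the PARIS-linked list the lower bound of 56.6% lay just above the 55.6% of all genes. With only 5 genes, that list is not set apart by this margin. Of the genes of other tissues 2 of 4 had a peak. Over all brain lists 35 of 51 genes had one (68.6%, 55.0 to 79.7%), and 18 of 51 (35.3%) one that was not flat.

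Among excitatory neuron genes Lhx2, a LIM homeobox factor of the hippocampal primordium, had 7 peaks and a highest maximum signal of 267 at chr2:38410025-38411230. Neurod6 and Bcl11b, factors of neuronal differentiation, had 5 each, none above 104 and all flat. Prox1, the homeobox factor of dentate granule cells, had 4, the tallest at 258. Of the interneuron genes Dlx2 had 5, all upstream, and Npy 4. Sst, which encodes somatostatin, had 1 with a maximum signal of 163. Among genes of cells other than neurons, Slc1a3, an astrocyte glutamate transporter, had 3 peaks with a highest maximum signal of 243. Olig2 had 3, with a highest of 125, and Cldn5, a tight-junction protein of endothelium, had 2.

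Immediate early genes, which neurons switch on with activity, had peaks at 7 of 10 members with eligible sequence. Of these 10, 6 had one that was not flat, against 27.6% of all genes. No interval was taken for the 6 of 10, and this list too was not matched for eligible sequence. Nptx2, a secreted pentraxin of synapses, had 11, the tallest at 180. Egr2 had 5 with a highest of 203, Egr1 had 4 with a highest of 88, and Fosl2, itself an AP-1 subunit, had 3 with a highest of 264.

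All 5 genes with reported links to PARIS, IRS or the genotype's name and with eligible sequence had a mid-distance peak (5 of 5, 56.6 to 100%), and 2 of 5 had one that was not flat. Ppargc1a had 2, at −97182 and −40253 bp from its TSS, the nearer with a maximum signal of 150 at chr5:51607908-51608245, and it had no promoter peak. Pck1, which encodes a gluconeogenic enzyme with an IRS in its promoter, had 2 with a highest maximum signal of 111 and no promoter peak. Mdm4, an inhibitor of p53, had 2 with a highest of 96. Zfp746, the gene of PARIS, had 1 at chr6:48112676-48113011, at −26084 bp, which reached 129, and it also had a promoter peak.

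The tallest mid-distance peak lay at −62216 bp, upstream of Lrig3, a leucine-rich membrane protein, at chr10:125902824-125905380, with a maximum signal of 968. Its total signal of 884413 ranked 2 among all peaks. The DNA around it was repetitive: of the 12-base words in the 1000 bp around the summit 81.9% occurred more than once there, although the genome file masked none of its summit window. Dync1i1, an intermediate chain of cytoplasmic dynein, had a peak at −20287 bp with a maximum signal of 712 and 88.6% repeated words. Rgs9, a regulator of G-protein signalling, had one with 648 and 68.5%. Over all mid-distance peaks the median was 0.607%, and 509 or 4.06% (3.73 to 4.42%) had at least 20%. That level was reached by 8.33% of the peaks of other shape (7.54 to 9.21%) and by 1.89% of the flat ones (1.62 to 2.20%). In the top 10% the share was 4.09% (3.02 to 5.53%), and 3 of the 10 tallest reached that level. The part of these repeats in the signal was not tested.

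Of the other tall peaks, all but that of Acaa2 had at most 4.85% repeated words. The peak upstream of Neurl1b, a ubiquitin ligase of the neuralized family, reached 910 at chr17:26380505-26381819. The peak assigned to Wscd2 reached 779 at chr5:113590840-113592672, 20944 bp downstream of the authors' TSS and 13075 bp from a GENCODE TSS of the same gene. The peak assigned to the lincRNA 4930431P22Rik reached 742, and the nearest protein-coding genes, Serp2 and Lacc1, were 234989 and 231631 bp away. The peak assigned to Klf10, a factor of the Krüppel-like family, reached 730 at chr15:38383730-38385974, and it lay 332 bp upstream of the TSS of the lincRNA Gm26863. Zfp706, a small zinc-finger protein, had one of 706, and Arl4d, an ARF-like GTPase, one of 635. The peak assigned to Acaa2, a mitochondrial thiolase, reached 639, with 15.5% repeated words.

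At the bounds of the rule, heights varied on both sides. The last peak outside 20 kb, at 19996 bp from Gm1965, had a maximum signal of 145, and the first inside, at 20001 bp from Sspn, had 36. At the far end the last inside, −99936 bp from Snx7, had 165, and the first outside, −100019 bp from Barx2, had 123.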

How the data were processed

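CUT&Tag was performed on hippocampus with anti-FLAG (1 library) and IgG (1 library). Per the labels' protocols and the submitters' processing notes, paired-end reads were trimmed and aligned to mm10 with Bowtie2, low-quality and duplicate reads were removed, SEACR called peaks against IgG, and deepTools made coverage tracks, which were not used here. Versions, the SEACR settings, the annotation tool and its transcripts are not given in the sources used here. The deposited peak list gives the authors' total and maximum signal per peak, and the deposited annotation gives class, distance to a TSS and gene. Read depth per library is not given in these files, so its effect on the number of peaks is unknown. All other values were computed with Python 3.11.15, numpy 2.4.6, pandas 2.3.3 and scipy 1.17.1, from mm10 sequence and GENCODE M21, on a grid of 100 bp for eligible sequence. Shares carry Wilson intervals, differences of shares Newcombe intervals and densities exact Poisson intervals, all at 95%. The Wilson and Newcombe formulas were checked against another implementation on fixed counts, and the motif search on simulated sequence. The Poisson intervals were not checked. The peak set and gene lists were chosen with earlier results of these data known. Named peaks were the 10 tallest and the 5 largest by total signal. Named genes were the 10 with the most peaks, up to 4 per list, and the flanks of the 5 longest runs. A gene list and its named genes are not reported here. The Entrez-ID transcripts, the limit on eligible sequence per gene, the reversed words, the split of the AP-1 word and the repeated-word share were added after the data had been seen.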

Additional observations from a re-analysis of the deposited data

How the results depend on the processing

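Only the GC, IRS and AP-1 differences and the upstream share had a direction that could reverse, and none did so in any setting. Of 123 alternative values for 11 results, 65 moved beyond the interval of the reported value. Some of these moves followed from the setting itself, such as 0 flat peaks when flat ones were left out. The other 58 stayed within it or, for the number of peaks, which has none, within 1.5 times 12575, down to 8888 for peaks at least 200 bp wide and 9301 at 30 to 100 kb. Leaving out flat peaks gave 4250 peaks, a median maximum signal of 123, 0 flat, 53.5% upstream, 6.31 peaks per Mb, 37.9% with a neighbour, GC, IRS and AP-1 differences of 4.59, −4.64 and 6.36 points, 41.4% of genes with a promoter peak and 17.8% of brain list genes with a mid-distance peak, against 35.5% when all list genes are counted. Peaks above the median maximum signal gave, in the same order, 5924, 133, 56.5% flat, 9.76 per Mb, 38.9%, 3.47, −4.52 and 5.66 points, 39.9% and 21.5%. The top 10% gave 977, 235, 0.102% flat, 52.0% upstream, 1.46 per Mb, 15.0%, 5.09, −5.37 and 11.5 points, 21.5% and 8.41%. Peaks at least 200 bp wide gave a median maximum signal of 90, 55.6% flat, 14.5 per Mb, 48.6% with a neighbour, a GC difference of 2.58 points and 47.7% of genes with a promoter peak. Merging peaks within 1 kb gave 100, 19.4 per Mb, 48.0% and 50.2% for the same measures without flatness and GC. In these settings the promoter peaks were filtered or merged in the same way as the mid-distance peaks. Genes without a mid-distance peak were not set beside them, so the lower promoter shares do not show a weaker link. GENCODE classes gave 70.0% flat, 52.2% upstream, 49.1% with a neighbour and 16.8% of list genes. Density was 28.5 per Mb by Entrez-ID transcripts, 23.8 on chromosomes 1 to 19, 21.6 at 20 to 80 kb and 19.8 at 30 to 100 kb, where 53.6% lay upstream and 54.6% had a neighbour. Neighbours within 5 and 25 kb gave 42.2 and 72.5%, and flatness at 95 and 90% gave 68.2 and 69.6%. Windows of 400 bp gave 2.48, −4.80 and 6.93 points for GC, IRS and AP-1, windows without masked bases 1.95, −1.04 and 5.97, and flanks 3000 bp away 3.13 for GC. Promoter peaks within 3 kb gave 62.4%, and list genes with eligible sequence 68.6%. Density already used GENCODE classes, so that alternative gave no separate value. No pairing of libraries was possible because each antibody had 1 library, and no library could be left out. Summit windows and flanks were compared as separate sets, and the pairing of each summit with its own flanks was not used. With 1 library, nothing here separates the antibody's target from a property of this preparation, and the signal of the IgG library at these peaks was not analysed here.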

Other observations

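By chromosome, with distances from transcripts that carry an Entrez ID, the mid-distance density over the 19 autosomes had a mean of 33.2 ± 4.50 per Mb of eligible sequence (SD over chromosomes), from 24.6 on chromosome 3 to 44.6 on chromosome 11. On chromosome X it was 9.08 (8.16 to 10.1), or 0.276 of the pooled autosomal value of 32.9. On chromosome Y 28 peaks gave 0.95 per Mb (0.632 to 1.37). The labels do not give the sex of the mice.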
